A study of Homo sapiens with 24 samples.

Results

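SUGCT, MYL2, SERPINB7, MFAP5, CASC8 and VAMP8 are 6 of the 12547 genes measured in U2OS cells, a human osteosarcoma line. They were chosen by their measured 0 h signal, because it was higher at 0 h in QKI-targeted cells given a KH-deleted QKI7 than in the other 3 genotypes. All had a value in every library. Their 0 h values are therefore given as a description, with no test, and the main tests use the 4 h and 8 h libraries only. An alternative fit with all 24 libraries also holds the 0 h libraries.

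PolyA RNA was profiled in 24 libraries, 2 for each of 4 genotypes at 3 times. The control line, sgNS+EV, has the sgNS guide with an empty vector. The other genotypes all carried a guide against QKI, with an empty vector (sgQKI+EV), with QKI7 (sgQKI+QKI7-WT) or with QKI7 that by its label lacks the KH domain (sgQKI+QKI7-△KH). Cells of every genotype were exposed to actinomycin D at 5 µg/mL, which blocks transcription, together with sodium arsenite at 200 µM, an oxidative stressor, for 0, 4 or 8 h. Loss of RNA was therefore followed under stress in all groups, and no group had the chase without arsenite. The promoter driving QKI7 and whether a line was 1 clone are not given in the sources used here. Nothing in the labels says that the replicate libraries came from separate cultures, so p-values measure only the spread between these libraries, which may be technical.

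QKI is an RNA-binding protein of the STAR family, and its KH domain, with the flanking QUA regions, holds single-stranded RNA that contains a short A- and U-rich element. Its isoforms share this RNA-binding part and differ in their C-terminal tails, and QKI7 is found largely in the cytoplasm. QKI is known for roles in splicing, in RNA stability and in mesenchymal and muscle cells. The 6 genes do not form a known pathway. SUGCT is a mitochondrial enzyme that moves coenzyme A from succinyl-CoA to glutarate, MYL2 is the regulatory myosin light chain of the heart ventricle and slow muscle, and SERPINB7 is an intracellular serine protease inhibitor best known from skin. MFAP5 is a glycoprotein of extracellular microfibrils, CASC8 is a long non-coding RNA of the region upstream of MYC, and VAMP8 is a SNARE that fuses late endosomes, autophagosomes and secretory vesicles with their targets.

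The sequences shown first are those that bear on QKI binding and on the start sites of the genes. The QKI core element was searched as ACTAAC or ACTAAT on the sense strand of the longest GENCODE 29 transcript of each gene. It had 1 match in SUGCT, within the coding part at bases 975 to 980 of 1645, and 1 in MFAP5, after the coding part. It was not among the letters of the longest transcripts of MYL2, SERPINB7, CASC8 or VAMP8. Over the 11958 genes of the table that matched a transcript, 48.6% held at least 1. Among the 1332 genes whose transcript was within 1.2 times the length of the SUGCT transcript the share was 25.2%. Found in the same way, it was 14.7% for MYL2, 30.2% for SERPINB7, 39.6% for MFAP5, 24.4% for CASC8 and 15.1% for VAMP8. The SUGCT match is printed with 12 bases on each side, and capitals mark the element.
SUGCT transcript, bases 963 to 992: tccaagtataaaACTAACcaccttcgggta

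RefSeq promoters, from 250 bases before to 50 after a start site on GRCh38.p14, were matched for SUGCT, SERPINB7 and VAMP8. These 3 genes had 5 start sites in the table, of which SERPINB7 had 3. Motifs were searched on both strands as TATAAA for the box bound by TBP, TGANTCA for AP-1 and GGAATG for TEAD, and no match overlapped another. Of 35116 promoters, 11.5% held the first, 7.71% the second and 14.0% the third. The promoters of SUGCT, at 66% GC, and of VAMP8 held none of these letters. The SERPINB7 start sites at the greatest 2 coordinates each held TGATTCA and TGAGTCA, and the last of them also held TATAAA and its reverse complement. The SUGCT promoter and that last SERPINB7 promoter are printed 5′ to 3′ on the plus strand to show the contrast in base composition, with AP-1 and box matches in capitals. A match of letters is a description and not a bound site.
SUGCT promoter, chr7:40134755-40135054: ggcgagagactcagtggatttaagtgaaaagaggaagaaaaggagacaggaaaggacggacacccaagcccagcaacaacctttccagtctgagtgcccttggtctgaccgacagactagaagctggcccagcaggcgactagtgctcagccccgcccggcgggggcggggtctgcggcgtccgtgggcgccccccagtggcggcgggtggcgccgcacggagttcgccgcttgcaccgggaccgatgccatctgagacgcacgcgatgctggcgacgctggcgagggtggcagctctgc
SERPINB7 promoter, chr18:63777531-63777830: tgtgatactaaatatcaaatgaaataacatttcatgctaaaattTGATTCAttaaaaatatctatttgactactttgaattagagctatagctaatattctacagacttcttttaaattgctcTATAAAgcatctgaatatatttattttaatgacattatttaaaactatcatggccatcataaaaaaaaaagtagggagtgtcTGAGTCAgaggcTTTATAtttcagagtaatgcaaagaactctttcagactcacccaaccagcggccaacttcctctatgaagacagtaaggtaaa

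Values are the deposited signal, which the authors had normalised to ERCC spike-in RNAs, so that a library's total can differ between groups. ERCC totals ranged from 11485 to 11940 over the libraries, and totals of the other genes from 690431 to 1367862. Depth is unknown, since the table holds no counts. The replicate libraries of sgQKI+QKI7-WT at 4 h agreed least of the 12 pairs, with Pearson r of 0.9889 across genes. In bulk RNA, fewer cells that express a gene and less RNA per cell cannot be told apart. All genes together were also a little higher in sgQKI+QKI7-△KH. The median log2 difference over 12547 genes at 0 h was 0.13 against sgNS+EV, 0.19 against sgQKI+EV and 0.15 against sgQKI+QKI7-WT.

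QKI itself was read first as a check of the labels. Its signal at 0 h lay between 48.2 and 60.0 in sgNS+EV and between 32.7 and 36.0 in sgQKI+EV. It lay between 46.3 and 60.4 in sgQKI+QKI7-WT and between 47.6 and 50.2 in sgQKI+QKI7-△KH. QKI RNA was thus lower in the targeted cells with an empty vector, without overlap, and at 0 h the add-back lines lay near or within the control range. The table does not separate the vector's QKI from the cell's own. At 8 h the signal was between 17.8 and 19.1 in sgQKI+QKI7-△KH and between 17.97 and 18.70 in sgQKI+QKI7-WT, a difference of 0.01 log2 (SE 0.13, limma adjusted p = 0.974). At 4 h QKI was between 22.6 and 24.7 in sgQKI+QKI7-△KH, beside 50.1 to 54.0 in sgNS+EV, 15.3 to 17.1 in sgQKI+EV and 32.8 to 50.5 in sgQKI+QKI7-WT. It was then lower in sgQKI+QKI7-△KH than in sgNS+EV, by −1.10 log2 (SE 0.13, limma adjusted p = 8.43e-05), and the difference of 0.52 from sgQKI+EV did not pass (limma adjusted p = 0.105). It was also lower in sgQKI+QKI7-△KH than in sgQKI+QKI7-WT, by −0.76 log2 (SE 0.13, limma adjusted p = 0.0174).

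**Figure D1:**
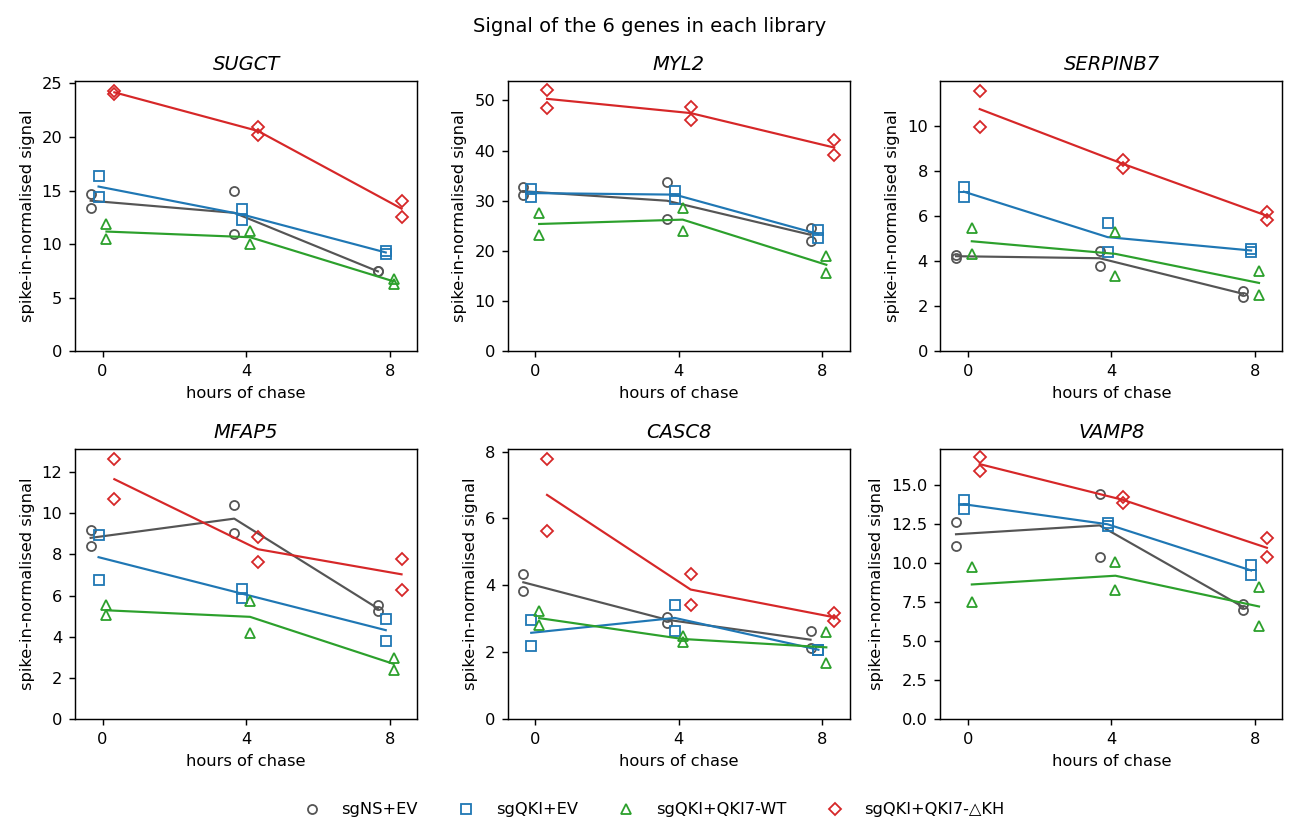
Spike-in-normalised signal (linear, vertical axes from 0) of the 6 genes in every library against hours of chase; symbols are single libraries, 2 per genotype and time, and lines join the group means. The sgQKI+QKI7-△KH libraries are the highest for all 6 genes at 0 h and 8 h, and for SUGCT, MYL2 and SERPINB7 at 4 h.

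At 0 h, where the genes were chosen, both sgQKI+QKI7-△KH libraries lay above all 6 other libraries for 6 of 6 genes, and the same held for 37.1% of all genes. The 4650 genes with such separation were ranked by the smallest of the 3 log2 differences from another genotype. MYL2 ranked 4 at 0.64, SUGCT 8 at 0.62, CASC8 11 at 0.59 and SERPINB7 14 at 0.54. MFAP5 ranked 80 at 0.37, and VAMP8 727 at 0.23. The smallest VAMP8 difference, against sgQKI+EV, was 0.05 above the median difference of all genes. Of the 6 genes, VAMP8 thus stood least apart at 0 h.

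During the chase, SUGCT and MYL2 were higher in sgQKI+QKI7-△KH than in every other genotype at both times, SERPINB7 was higher in 4 of 6 comparisons and MFAP5 in 2. VAMP8 was higher in 1 comparison and CASC8 in 0. Together 19 of 36 tests passed as higher and 0 as lower (limma, Benjamini-Hochberg over 12547 genes, threshold 0.05). The later libraries come from the same lines as the 0 h libraries, and the 3 comparisons at each time share the sgQKI+QKI7-△KH libraries, so these tests are not independent of one another.

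The counts read differently against each comparison. At 4 h, 3 of the 6 genes were higher against sgNS+EV, where 14.4% of all genes were. Against sgQKI+EV 2 were higher, where 0.247% of all genes were, and against sgQKI+QKI7-WT 3 were, where 0.112% were. At 8 h, 4 were higher against sgNS+EV (2.12% of all genes) and 4 against sgQKI+QKI7-WT (1.94%). The 3 genes higher against sgQKI+EV at 8 h came with a background of 40.4% and are no result about these genes. The median difference of the 6 genes was 0.47, 0.48 and 0.74 log2 at 4 h, against sgNS+EV, sgQKI+EV and sgQKI+QKI7-WT in turn, beside medians of −0.04, 0.11 and −0.09 over all genes. At 8 h the medians of the 6 were 0.65, 0.44 and 0.87, beside 0.05, 0.25 and 0.15.

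**Figure D2:**
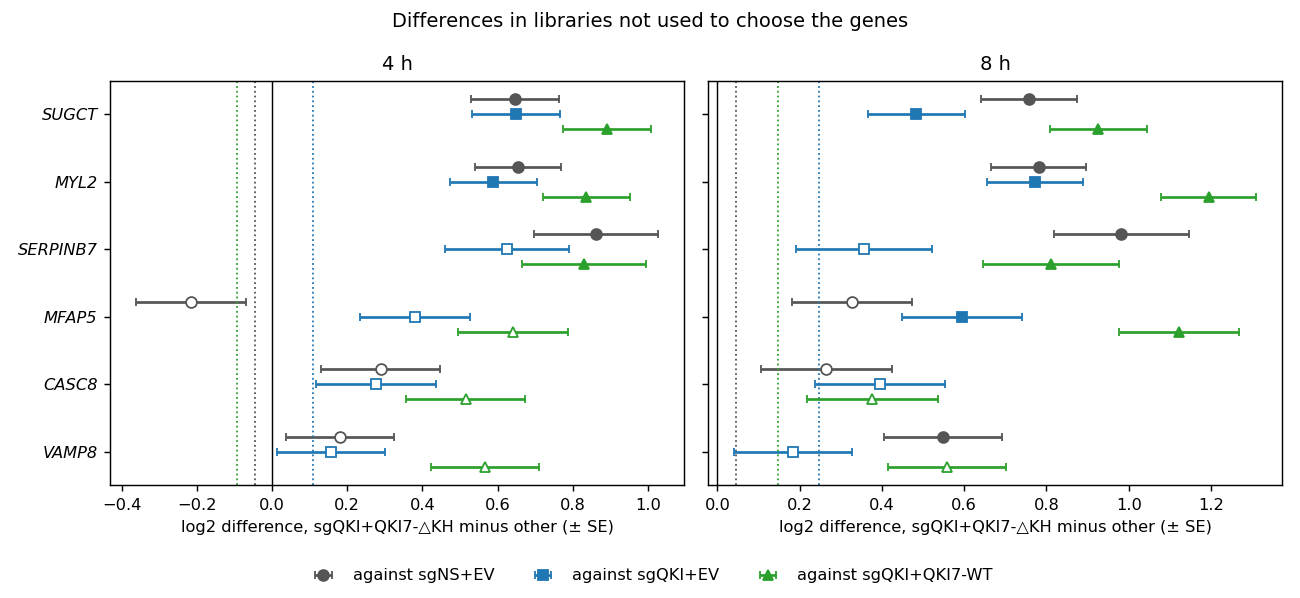
Log2 difference of sgQKI+QKI7-△KH from each other genotype (horizontal axes, log2 of signal plus 1) at 4 h and 8 h, with bars of 1 SE from limma; filled symbols passed at an adjusted p of 0.05, open ones did not, and dotted lines are the medians of all genes in matching colours. SUGCT and MYL2 are filled in all 6 places, and CASC8 in 0.

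SUGCT lies on chromosome 7 from 40134977 to 40860763 on the plus strand (GRCh38, GENCODE 29). Its signal in sgQKI+QKI7-△KH was 24.01 and 24.3 at 0 h, 20.2 and 20.9 at 4 h, and 12.6 and 14.1 at 8 h. The sgNS+EV libraries gave 14.7 and 13.4, 14.9 and 10.9, and 7.46 and 7.45 at the same times. The sgQKI+EV libraries gave 16.4 and 14.4, 12.3 and 13.3, and 9.12 and 9.33. The sgQKI+QKI7-WT group means were lowest, with values of 11.9 and 10.4, 10.0 and 11.3, and 6.31 and 6.74. The sgQKI+QKI7-△KH libraries were above all others at each time, without overlap. At 4 h the log2 difference (SE 0.12) was 0.65 against sgNS+EV, 0.65 against sgQKI+EV and 0.89 against sgQKI+QKI7-WT, with limma adjusted p of 0.00143, 0.0215 and 0.00167. At 8 h it was 0.76, 0.48 and 0.93, with limma adjusted p of 0.00146, 0.00677 and 7.68e-04. The calls against sgQKI+EV at 4 h and 8 h were lost when libraries were scaled to equal totals, with adjusted p of 0.141 and 0.565, and under quantile normalisation, with 0.142 and 0.537. Leaving out 1 library also lost them, at 4 h for either sgQKI+QKI7-△KH library or the second sgQKI+EV library (adjusted p from 0.227 to 0.314), and at 8 h for the second library of either (0.0560 and 0.101). The order of the other 3 genotypes was not resolved, since no test among them passed for SUGCT.

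MYL2, on chromosome 12 from 110910819 to 110920722 on the minus strand, kept most of its signal through the chase. In sgQKI+QKI7-△KH it was 52.0 and 48.6 at 0 h, 46.2 and 48.8 at 4 h, and 39.0 and 42.2 at 8 h. In sgNS+EV the values were 31.1 and 32.7, 33.7 and 26.3, and 21.9 and 24.5. In sgQKI+EV they were 30.8 and 32.3, 30.4 and 32.0, and 22.6 and 24.1. In sgQKI+QKI7-WT they were 23.2 and 27.6, 28.5 and 23.98, and 18.9 and 15.5. Both empty-vector genotypes overlapped at every time. The sgQKI+QKI7-△KH libraries at 8 h exceeded every 0 h library of the other genotypes. Those 0 h values were among the values that chose the genes, so this is a description only, and its share over all genes was not counted. At 4 h the log2 difference (SE 0.12) was 0.65 against sgNS+EV, 0.59 against sgQKI+EV and 0.84 against sgQKI+QKI7-WT, with limma adjusted p of 0.00128, 0.0332 and 0.00185. At 8 h it was 0.78, 0.77 and 1.19, with limma adjusted p of 0.00106, 0.00122 and 2.37e-05. Against sgQKI+EV, equal totals gave adjusted p of 0.151 at 4 h and 0.0689 at 8 h, and quantile normalisation 0.145 and 0.0773. At 4 h that call was lost without any 1 of the 4 libraries compared (adjusted p from 0.0554 to 0.462), and at 8 h without the second sgQKI+QKI7-△KH library (0.0504). Without the second sgQKI+QKI7-△KH library at 4 h, the call against sgQKI+QKI7-WT was lost as well (0.0531). When the 4 libraries of sgQKI+QKI7-△KH and sgQKI+QKI7-WT at 4 h were fitted alone, the calls of SUGCT, MYL2 and SERPINB7 between them were lost, with an adjusted p of 0.705 for each.

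In sgQKI+QKI7-△KH the 8 h mean was 80.7% of the 0 h mean, beside 72.8% in sgNS+EV, 74.1% in sgQKI+EV and 67.9% in sgQKI+QKI7-WT. For SUGCT these shares were 55.1%, 53.1%, 60.0% and 58.4%. These shares rest on the 0 h values that chose the genes and were not tested.

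SERPINB7 lies on chromosome 18 from 63752935 to 63805376 on the plus strand. Its signal in sgQKI+QKI7-△KH was 11.5 and 9.94 at 0 h, 8.12 and 8.48 at 4 h, and 5.83 and 6.18 at 8 h. The sgQKI+EV values were 7.29 and 6.85, 5.70 and 4.41, and 4.40 and 4.53 at the same times. The sgNS+EV values were 4.14 and 4.28, 3.79 and 4.45, and 2.41 and 2.68. Those of sgQKI+QKI7-WT were 4.30 and 5.45, 5.28 and 3.35, and 3.57 and 2.48. The sgQKI+EV group mean was the second highest at each time. Its libraries did not overlap those of sgNS+EV at 0 h and 8 h, and did overlap them at 4 h. The share of all genes separated in this way was not counted. Against sgNS+EV the log2 difference (SE 0.16) was 0.86 at 4 h and 0.98 at 8 h, with limma adjusted p of 0.00191 and 0.00261. Against sgQKI+QKI7-WT it was 0.83 and 0.81, with limma adjusted p of 0.0314 and 0.0197. Against sgQKI+EV it was 0.63 and 0.36, and neither passed (limma adjusted p of 0.105 and 0.0862). At 8 h SERPINB7 was also higher in sgQKI+EV than in sgNS+EV, by 0.63 log2 (limma adjusted p = 0.0100), where 0.327% of all genes were higher. The call against sgQKI+QKI7-WT at 4 h was lost without either sgQKI+QKI7-△KH library, with adjusted p of 0.218 and 0.343. At 8 h it was lost without either sgQKI+QKI7-△KH library or without the second sgQKI+QKI7-WT library, with adjusted p from 0.0945 to 0.374.

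MFAP5, on chromosome 12 from 8637346 to 8662888 on the minus strand, followed another order. Its signal in sgQKI+QKI7-△KH was 12.6 and 10.7 at 0 h, 7.64 and 8.86 at 4 h, and 6.29 and 7.77 at 8 h. The sgNS+EV values were 9.20 and 8.40, 10.4 and 9.06, and 5.23 and 5.52. Those of sgQKI+EV were 8.95 and 6.78, 6.29 and 5.89, and 4.85 and 3.79, and those of sgQKI+QKI7-WT were 5.52 and 5.05, 5.73 and 4.21, and 2.96 and 2.41. At 4 h the control libraries were the highest, above both sgQKI+QKI7-△KH libraries. The log2 difference from sgNS+EV (SE 0.15) was −0.21 at 4 h and 0.33 at 8 h, with limma adjusted p of 0.264 and 0.248. With equal library totals the 4 h difference was −0.35 and passed as lower (adjusted p = 0.0318). From sgQKI+EV it was 0.38 and 0.60, with limma adjusted p of 0.202 and 0.00692. From sgQKI+QKI7-WT it was 0.64 and 1.12, with limma adjusted p of 0.0654 and 7.68e-04. The 4 h difference from sgQKI+QKI7-WT passed with quantile normalisation (limma adjusted p = 0.00512) and equal totals (0.0280). It also passed with all 24 libraries (0.0423), which include the 0 h libraries that chose the genes. Over the alternatives this difference ranged from 0.46 to 0.83. The 8 h call against sgQKI+EV was lost with equal totals (adjusted p = 0.284), with quantile normalisation (0.0835), and without the second sgQKI+EV library (0.0946) or the second sgQKI+QKI7-△KH library (0.115). The 8 h call against sgQKI+QKI7-WT was lost without the second sgQKI+QKI7-WT library (0.0509).

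MFAP5 was also the gene with most differences among the other 3 genotypes. It was lower than sgNS+EV in sgQKI+EV at 4 h by −0.60 log2 (limma adjusted p = 0.00511), where 31.8% of all genes were lower. In sgQKI+QKI7-WT it was lower than sgNS+EV by −0.86 at 4 h and −0.80 at 8 h (limma adjusted p of 0.00193 and 0.00567), where 2.23% and 3.56% of all genes were lower. Over the 6 genes and the 6 comparisons among those 3 genotypes, 5 of 36 tests passed, of which MFAP5 gave 3. The share of all genes that passed in either direction was 38.3%, 15.4% and 35.5% at 4 h, for sgQKI+EV against sgNS+EV, sgQKI+QKI7-WT against sgNS+EV and sgQKI+QKI7-WT against sgQKI+EV. At 8 h it was 31.1%, 3.75% and 0.128%. Against those shares, 5 of 36 is not a result about the 6 genes.

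CASC8, a gene annotated as antisense on chromosome 8 from 127289817 to 127482139 on the minus strand, had low signals. In sgQKI+QKI7-△KH it was 7.77 and 5.63 at 0 h, 4.34 and 3.41 at 4 h, and 3.16 and 2.93 at 8 h. In sgNS+EV it was 4.35 and 3.83, 2.88 and 3.07, and 2.13 and 2.62. In sgQKI+EV it was 2.96 and 2.20, 3.42 and 2.63, and 2.07 and 2.08, and in sgQKI+QKI7-WT 2.82 and 3.23, 2.30 and 2.49, and 2.60 and 1.69. The groups separated widely at 0 h, touched at 4 h, where 1 sgQKI+EV library passed the lower sgQKI+QKI7-△KH library, and were apart by a small margin at 8 h. Its log2 differences (SE 0.16) were between 0.28 and 0.51 at 4 h and between 0.26 and 0.40 at 8 h. None passed in limma, with adjusted p from 0.0546 to 0.416. The sgQKI+QKI7-△KH mean at 8 h was 45.4% of that at 0 h, beside 58.1% in sgNS+EV, 80.4% in sgQKI+EV and 71.1% in sgQKI+QKI7-WT. Like those of SUGCT and MYL2, these shares rest on the 0 h values that chose the genes and were not tested. From 4 h to 8 h the log2 change was −0.26 in sgQKI+QKI7-△KH. It was −0.24 in sgNS+EV, −0.38 in sgQKI+EV and −0.12 in sgQKI+QKI7-WT. The constant of 1 added before taking logs shrinks differences at such low signals. With a constant of 0.1 the differences were between 0.35 and 0.66 (SE 0.21). None of these passed either, with limma adjusted p from 0.0513 to 0.406.

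VAMP8 lies on chromosome 2 from 85561562 to 85582031 on the plus strand. Its signal in sgQKI+QKI7-△KH was 16.7 and 15.9 at 0 h, 13.8 and 14.2 at 4 h, and 11.6 and 10.4 at 8 h. In sgNS+EV it was 11.1 and 12.6, 14.4 and 10.4, and 7.33 and 7.005, and in sgQKI+EV 14.0 and 13.4, 12.4 and 12.6, and 9.83 and 9.19. In sgQKI+QKI7-WT it was 7.51 and 9.72, 10.1 and 8.27, and 8.44 and 5.98. At 4 h 1 sgNS+EV library was the highest of all, and at 8 h the sgQKI+QKI7-△KH and sgQKI+EV libraries lay next to each other. VAMP8 was higher than in sgNS+EV at 8 h by 0.55 log2 (SE 0.14, limma adjusted p = 0.0422). Leaving out any 1 of the 4 libraries compared lost this call, with adjusted p from 0.143 to 0.248. The differences from sgQKI+QKI7-WT were 0.57 at 4 h and 0.56 at 8 h (limma adjusted p of 0.0978 and 0.0531), and those from sgQKI+EV 0.16 and 0.18 (0.589 and 0.285). The VAMP8 differences from sgQKI+EV changed sign with equal totals, to −0.0029 and −0.067. Among the other genotypes, VAMP8 was lower in sgQKI+QKI7-WT than in sgQKI+EV at 4 h by −0.41 (limma adjusted p = 0.0343), where 0.574% of all genes were lower.

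Across the 6 genes, both sgQKI+QKI7-△KH libraries lay above all 6 others for 3 genes at 4 h (2.95% of all genes) and for 6 genes at 8 h (29.2% of all genes). At 4 h the 3 genes were SUGCT, MYL2 and SERPINB7. Whether the difference from the mean of the other 3 genotypes widened between 4 h and 8 h was tested as an interaction in the same fit. The change was −0.01 for SUGCT, 0.22 for MYL2, −0.06 for SERPINB7, 0.41 for MFAP5, −0.01 for CASC8 and 0.13 for VAMP8, beside a median of 0.14 over all genes. None passed (limma adjusted p of 0.329 for MYL2 and 0.162 for MFAP5), and over all genes 0 of 12547 (0.0%) passed while 2881 had an unadjusted p under 0.05. Without the second sgQKI+QKI7-WT library at 4 h, 3539 genes passed, MFAP5 among them at 0.47 (limma adjusted p = 0.0165). Without the first, 1080 passed.

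The 6 genes were compared with the 50 genes that ranked highest at 0 h, 4 of which were SUGCT, MYL2, CASC8 and SERPINB7. The 10 highest were VSTM1, UCA1, TCEAL5, MYL2, LOC100505817, NRG1, TNNT2, SUGCT, LOC390705 and SFTA1P. Of the 50 genes, 17, 8 and 6 were higher at 4 h against sgNS+EV, sgQKI+EV and sgQKI+QKI7-WT, and 20, 24 and 16 at 8 h. The shares of all genes were 14.4%, 0.247% and 0.112% at 4 h and 2.12%, 40.4% and 1.94% at 8 h, so the 24 against sgQKI+EV are near the background. 3 of the 50 were higher in all 6 comparisons and 24 in none. A large 0 h difference was thus often not followed by a passing difference in the chase. The median differences of the 50 genes were still above those of all genes. At 4 h they were 0.23, 0.30 and 0.15 log2 in the same order, beside −0.04, 0.11 and −0.09. At 8 h they were 0.35, 0.38 and 0.38, beside 0.05, 0.25 and 0.15. VSTM1, first in this ranking with a smallest 0 h difference of 0.73, passed in 1 of 6 comparisons.

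**Figure D3:**
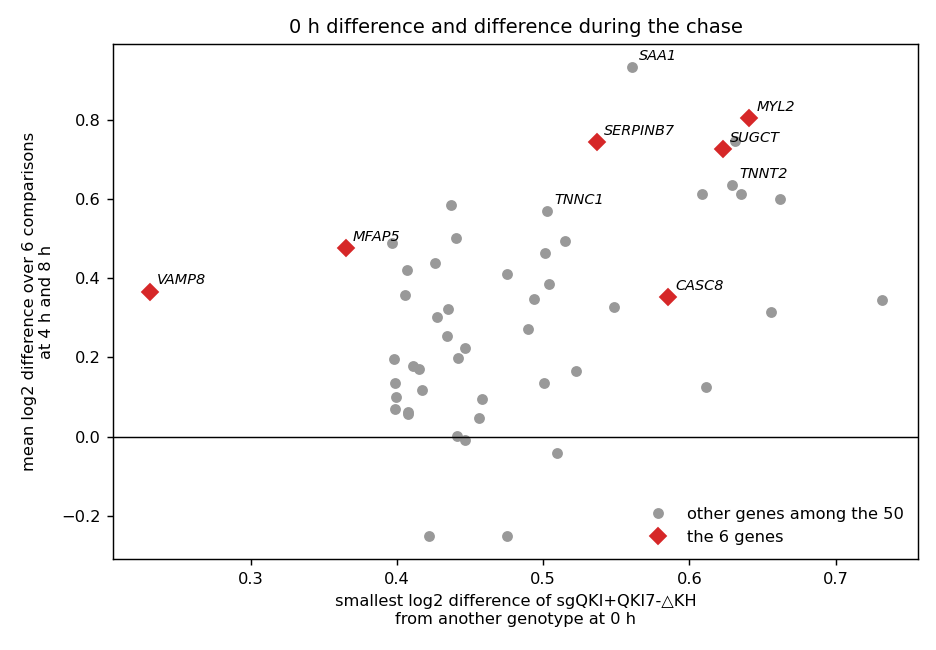
Smallest log2 difference of sgQKI+QKI7-△KH from another genotype at 0 h (horizontal) against the mean log2 difference over the 6 comparisons at 4 h and 8 h (vertical), for the 50 highest genes at 0 h (grey) and the 6 genes (red). CASC8 sits at 0.59 and 0.35, below MYL2 at 0.64 and 0.80, and the points share the same cells and libraries.

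Among all genes 4 were higher in sgQKI+QKI7-△KH in all 6 comparisons, and SUGCT and MYL2 were 2 of them. The others, named after their values were seen, were SAA1, an acute-phase serum amyloid protein, and TGM2, a transglutaminase that cross-links proteins. SAA1 differed by 0.55 to 1.42 log2 and TGM2 by 0.39 to 0.86. SAA1 was 18.6 and 19.5 in sgQKI+QKI7-△KH at 8 h, beside 13.8 and 11.8 in sgQKI+QKI7-WT and 5.59 and 7.55 in sgNS+EV. SAA1 was also higher in both sgQKI+QKI7-WT libraries than in every empty-vector library of the same time.

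Genes of the same families were listed for each of the 6. Among 13 measured genes of myosin light chains and the cardiac sarcomere, without MYL2, 4, 1 and 0 were higher at 4 h, against sgNS+EV, sgQKI+EV and sgQKI+QKI7-WT in turn. At 8 h 2, 9 and 1 were higher, and 0 were lower in any comparison. The shares of all genes higher in these comparisons were 14.4%, 0.247% and 0.112% at 4 h and 2.12%, 40.4% and 1.94% at 8 h. TNNT2, the cardiac troponin T, was higher in 5 of 6, with differences from 0.42 to 0.80, and TNNC1, the slow and cardiac troponin C, in 3 of 6, with differences from 0.17 to 0.99. TNNT2 was 26.0 and 26.6 at 4 h in sgQKI+QKI7-△KH and 24.05 and 15.6 in sgQKI+QKI7-WT, which differ widely between their own replicates. TNNT2 and TNNC1 ranked 7 and 19 at 0 h, so both belong to the same selection as MYL2. The non-muscle myosin genes MYH9 and MYL9 were each higher in 2 of 6. The list's median at 8 h against sgQKI+QKI7-WT was 0.20 log2, beside 0.15 over all genes.

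Among 16 measured microfibril and elastic fibre genes without MFAP5, 8 were higher and 1 was lower against sgNS+EV at 4 h, 7 were higher against sgQKI+EV at 8 h, 1 against sgNS+EV and 3 against sgQKI+QKI7-WT at 8 h. Of all genes, 14.4% were higher and 18.3% lower in the first comparison, and 40.4%, 2.12% and 1.94% were higher in the others, so the 7 are near the background. EFEMP1, a fibulin, was higher in 4 of 6 comparisons and LOXL2, a lysyl oxidase that cross-links collagen, in 2, while MFAP5 was not higher against sgNS+EV at 4 h. Of 15 measured genes of lysine and glutaryl-CoA breakdown without SUGCT, 2 were higher and 2 lower against sgNS+EV at 4 h, beside 14.4% and 18.3% of all genes. Against sgQKI+EV at 8 h 8 were higher, beside 40.4% of all genes, and in the other 4 comparisons 0 passed. GCDH, which oxidises glutaryl-CoA, was higher in 1 of 6 comparisons, with differences between 0.13 and 0.32.

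For SERPINB7, 4 of 12 other clade B serpins were measured. SERPINB1, an inhibitor of neutrophil proteases, was lower against sgNS+EV at 4 h, where 18.3% of all genes were lower. No other call was made among these serpins. For CASC8, 3 of 12 neighbours at 8q24 were measured. PVT1, a non-coding RNA beside MYC, was higher in 3 of 6 comparisons, MYC in 1, and FAM84B was lower in 1. Of these 3 genes, 1 was higher and 1 lower against sgNS+EV at 4 h (14.4% and 18.3% of all genes). At 8 h 1 was higher against sgNS+EV (2.12% of all genes) and 2 against sgQKI+EV (40.4%). Of 32 measured SNAREs without VAMP8, 3 were higher and 10 lower against sgNS+EV at 4 h (14.4% and 18.3% of all genes). At 8 h 14 were higher against sgQKI+EV (40.4% of all genes) and 1 against sgQKI+QKI7-WT (1.94%). The SNARE median differences ran from −0.14 to 0.27 log2 over the 6 comparisons, beside −0.09 to 0.25 for all genes.

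Markers of other cell types were read because MYL2 is a muscle gene and SERPINB7 a skin gene. Of 14 cardiac and skeletal muscle markers 1, TNNT2, had a value in the table used, and of 7 blood cell markers 0 had. The muscle list left out MYL2 and TNNC1, which both had values. Of 9 epithelial markers 5 had values, and CDH1, KRT5, KRT19 and CLDN7 had none. Their summed signal over all times lay between 897 and 1383 in sgQKI+QKI7-△KH, beside 756 to 1264 in sgNS+EV, 716 to 1240 in sgQKI+EV and 775 to 1299 in sgQKI+QKI7-WT. Of 10 osteoblast-lineage markers 5 had values, with sums per library, at all times, between 746 and 1558 in sgQKI+QKI7-△KH, 830 and 1548 in sgNS+EV, 699 and 1378 in sgQKI+EV, and 788 and 1437 in sgQKI+QKI7-WT. SP7, ALPL, COL1A2, BGLAP and IBSP were without a value. Both sets of ranges pool the 3 times and so include the loss of RNA over the chase. They do not compare the genotypes at matched times. Over the 6 comparisons at 4 h and 8 h, TNFRSF11B, KRT18 and KRT8 were each higher in 2, COL1A1 was higher in 1 and lower in 1, and SPP1 and RUNX2 were each lower in 1. KRT18 and KRT8 were higher against sgNS+EV at 4 h (14.4% of all genes) and sgQKI+EV at 8 h (40.4%). Of the osteoblast-lineage genes, 1 was higher and 2 lower against sgNS+EV at 4 h (14.4% and 18.3%). Against sgNS+EV at 8 h 1 was lower, with 185 of 12547 genes. Against sgQKI+QKI7-WT 1 was higher at each time (0.112% and 1.94%). The part of any such cells in the results was not tested.

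The genes most like each of the 6 were sought among 10559 genes with a mean signal of at least 5, by Pearson r over the 24 libraries after each gene's mean at each time and each library's median were subtracted. The 24 libraries share 12 groups, and no p is given. They include the 0 h libraries that chose the 6 genes, so a gene high in sgQKI+QKI7-△KH tends to a high r. SUGCT was most like IGFBP7 (0.911), ADAMTS12 (0.888) and NOV (0.885). Among the genes most like MYL2 were ADAMTS12 (0.911) and IGFBP7 (0.898). ADAMTS12 and IGFBP7 ranked 16 and 33 at 0 h, so both belong to the same selection. SERPINB7 was most like SPTB, FST and MAN2B2, with r from 0.873 to 0.891, and MFAP5 most like HAS2, COL8A1 and TRIM22, with r from 0.879 to 0.905. VAMP8 was most like TNFRSF11B, CXCL14 and SCN4B, with r from 0.833 to 0.887. CASC8 had the lowest values, at 0.751 with CYFIP2, 0.727 with SMCO4 and 0.710 with FRMD5. Among the 6 genes themselves the 15 pairs gave r between 0.441 and 0.919, with a median of 0.695, which the choice of genes with the same high group fixes in part.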

How the data were processed

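PolyA RNA of 24 U2OS libraries was prepared with a stranded kit, per the labels' protocols, with STAR, RSEM and the build GRCh38 given, without versions, in the submitters' processing notes. The deposited table holds, for 38 ERCC rows and 12547 genes, a linear signal that the authors had scaled to the ERCC spike-ins. That reading rests on the near-equal ERCC sums. The unit before scaling and the amount of spike-in per cell are not given in the sources used here. The lowest value was 0.641, and 38 rows repeated an earlier row, 0 of them among the 6 genes.

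Values were taken as log2 of the signal plus 1. The filter, at least 1 in at least 2 libraries, removed 0 genes. Limma 3.58.1 in R 4.3.3 was fitted with a mean-variance trend to the 16 libraries at 4 h and 8 h, as 8 group means with 8 residual and 9.91 prior degrees of freedom. Tests were two-sided, adjusted by Benjamini-Hochberg over 12547 genes, with a threshold of 0.05. "Higher" and "lower" are used of passing tests, and of plain values where no test is given. In simulated data for the sgNS+EV comparison at 4 h over 12547 genes, 55% of changes of 0.5 log2 and 98% of changes of 1 log2 were recovered, with 3 false calls. The simulation changed 100 genes by each size, with noise independent between genes and no shift of whole libraries. In the deposited libraries 4111 genes passed in this comparison, so the simulated rates are no measure of the tests reported here.

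The members and lists were chosen with earlier results of these data known. Named genes are the 6, QKI, up to 4 passing genes a list, the 3 genes most like each member and the 10 highest at 0 h. 1 gene that this rule names is not reported here. SAA1 and TGM2 were named after their values were seen. Alternatives were other scalings, pseudocounts, filters, sample sets, a replicate term and leaving out each library. 1 was added after the data were seen, leaving out both sgQKI+QKI7-WT libraries at 4 h. Proteins and other promoters were not used here.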

Additional observations from a re-analysis of the deposited data

How the results depend on the processing

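Over the 36 comparisons of the 6 genes with another genotype, 8 of the 19 that passed did so under every alternative that gave them a value, and 11 were lost under at least 1. The 8 were SUGCT, MYL2 and SERPINB7 against sgNS+EV at both times and SUGCT and MYL2 against sgQKI+QKI7-WT at 8 h. SERPINB7 and CASC8 were removed by the filter of a mean value of at least 5 and were not tested there. No passing difference of the 6 genes changed sign under these alternatives, and MFAP5 passed as lower against sgNS+EV at 4 h with library totals. Counts over all genes moved more. Their values are given as genes passing, with higher and lower in that order where the split moved.

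With quantile normalisation, 102 genes passed against sgQKI+QKI7-WT at 4 h (65 and 37, beside 14 and 36 as deposited). At 8 h 1277 passed against sgNS+EV (573 and 704, beside 266 and 185), 90 against sgQKI+EV (47 and 43, beside 5070 and 7) and 104 against sgQKI+QKI7-WT (72 and 32, beside 243 and 3). Against sgQKI+EV at 4 h the split was 15 and 19, beside 31 and 7. With library totals, 6274 passed against sgNS+EV at 4 h (875 and 5399, beside 1809 and 2302) and 24 against sgQKI+EV (5 and 19). Against sgQKI+QKI7-WT at 4 h the split was 36 and 27. At 8 h, totals gave 1069 against sgNS+EV (685 and 384), 43 against sgQKI+EV (22 and 21) and 141 against sgQKI+QKI7-WT (125 and 16). Over both times, totals gave 13 calls of the 6 genes among the other 3 genotypes. With all 24 libraries, 278 passed against sgQKI+EV and 123 against sgQKI+QKI7-WT at 4 h, and 613 against sgQKI+QKI7-WT at 8 h. With the compared groups alone, 245 passed against sgQKI+EV at 4 h and 0 against sgQKI+QKI7-WT, and at 8 h 1923, 7933 and 1730 against sgNS+EV, sgQKI+EV and sgQKI+QKI7-WT. With both sgQKI+QKI7-WT libraries at 4 h left out, 629 passed against sgQKI+EV at 4 h, and 1459 and 2156 against sgNS+EV and sgQKI+QKI7-WT at 8 h. SERPINB7 then passed against sgQKI+EV at 4 h and 8 h (adjusted p of 0.0144 and 0.0215), CASC8 against sgQKI+EV at 8 h (0.0270) and VAMP8 against sgQKI+QKI7-WT at 8 h (0.00780). The cause was not tested.

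Leaving out 1 library gave 940 to 2792 genes against sgNS+EV at 4 h, 0 to 353 against sgQKI+EV and 5 to 4777 against sgQKI+QKI7-WT, the 4777 without the second sgQKI+QKI7-WT library. At 8 h it gave 90 to 127, 36 to 3867 and 7 to 50 in the same order, the 36 without the second sgQKI+QKI7-△KH library. The group left with 1 library is assumed to vary like the others. The 8 h minus 4 h interaction gave 0 to 3539 genes, and calls of the 6 genes among the other 3 genotypes ranged from 3 to 14.

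Differences that did not pass changed sign in 20 cases, to values between −0.086 and 0.12 log2. For VAMP8 these were −0.058 with quantile normalisation and −0.067 with library totals against sgQKI+EV at 8 h, and −0.0029 with library totals against sgQKI+EV at 4 h. Against sgNS+EV at 4 h it ranged from −0.036 to 0.40 when 1 library was left out. The VAMP8 interaction was −0.086 with quantile normalisation. With a pseudocount of 0.1 the SUGCT interaction was 0.017 and that of CASC8 0.0084. Leaving out 1 library gave an interaction from −0.081 to 0.069 for SUGCT, −0.15 to 0.12 for CASC8 and −0.15 to 0.032 for SERPINB7.

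Over 28 pairs of groups, deviations of samples with the same replicate number had r from −0.214 to 0.398 (median −0.034). Of these, 7 were over 0.1 and 8 under −0.1, so pairing in some groups is not excluded. With a replicate block, the counts against sgNS+EV, sgQKI+EV and sgQKI+QKI7-WT were 4165, 41 and 62 at 4 h and 451, 5162 and 246 at 8 h, the interaction gave 0, and 7 calls of the 6 genes were made among the other 3 genotypes, beside 5 without it. Of the comparisons of sgQKI+QKI7-△KH with another genotype, the block changed only the VAMP8 calls against sgQKI+QKI7-WT, which passed at 4 h and 8 h (adjusted p of 0.0463 and 0.0293). The depth of the libraries is unknown, so no counting error could be given for low signals such as those of CASC8.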
